A study of Homo sapiens with 12 samples.

Results

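The chemokines described here are 10 genes of the CXCL and CCL families: IL8 (the older name of CXCL8, used by the deposited table), CXCL1, CXCL2, CXCL3, CXCL5, CXCL6, CXCL10, CCL2, CCL5 and CCL20. They were chosen by name, and each had 1 row among the 24331 features of the table. Expression had been measured by RNA-sequencing in MDA-MB-231 cells, a human triple-negative breast cancer cell line. Wild-type (WT) cells were compared with ΔCRE cells (labelled KO), in which CRISPR/Cas9 had removed a stretch of the ETS1 promoter that holds NFAT and NF-κB binding sites. Cells of both genotypes received PMA (a phorbol ester) together with Ionomycin (a calcium ionophore) for 6 or 24 h, and the mock-treated cells stand for 0 h. Each of the 6 conditions had 2 biological replicates, which gave 12 libraries. How many cell clones the ΔCRE libraries came from was not given in the sources used here, so an effect of the deletion and an effect of a clone cannot be told apart. The comparisons ask how the chemokines responded to stimulation, and whether the response differed in cells without the ETS1 promoter element.

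Chemokines are small secreted proteins that guide migrating cells along gradients through receptors of the G protein-coupled family. IL8 and the CXCL1, CXCL2, CXCL3, CXCL5 and CXCL6 group carry the ELR amino acid motif, act through CXCR2 and draw neutrophils. CXCL10 attracts activated T cells through CXCR3, and CCL2 draws monocytes through CCR2. CCL5 draws T cells and monocytes, and CCL20 is the ligand of CCR6. Many of these genes are transcribed within hours when PMA and calcium signals activate NF-κB, AP-1 and NFAT, and several of their mRNAs are short-lived because of AU-rich elements in the 3′ UTR.

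The genes occupy 3 chromosomes, with coordinates on hg19 as the deposited table gives them. On chromosome 4, IL8 (XLOC_016373) lay at chr4:74606222-74609433, CXCL6 (XLOC_016374) at chr4:74702272-74704477, CXCL1 (XLOC_016376) at chr4:74735108-74737019, CXCL5 (XLOC_016790) at chr4:74861358-74864416, CXCL3 (XLOC_016791) at chr4:74902311-74904490 and CXCL2 (XLOC_016793) at chr4:74962753-74964997. CXCL10 (XLOC_016802) was given the interval chr4:76932332-77033955, which also spans other genes. CCL2 (XLOC_008983) lay at chr17:32582295-32584220, CCL5 (XLOC_009626) at chr17:34198495-34207377 and CCL20 (XLOC_012684) at chr2:228678557-228682280.

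Promoter sequences of 8 of the 10 genes were matched in a RefSeq table (assembly GRCh38.p14, where IL8 is CXCL8), and each occurred exactly once on its chromosome of GRCh37, the build equal to hg19. The stretches from 150 to 61 bases upstream of the RefSeq start are shown for the induced genes among the 8 and for CXCL5. CCL2 and CCL5 were not matched. Letters in capitals mark matches to the NF-κB core motif GGAATTTCC, the AP-1 motif TGANTCA or the ETS motif GGAAGT, all 3 searched on both strands, and lines give the coordinates on GRCh37.
IL8 (chr4:74606136-74606225, plus strand): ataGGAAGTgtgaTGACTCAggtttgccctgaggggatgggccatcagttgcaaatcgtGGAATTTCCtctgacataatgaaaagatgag
CXCL1 (chr4:74734960-74735049, plus strand): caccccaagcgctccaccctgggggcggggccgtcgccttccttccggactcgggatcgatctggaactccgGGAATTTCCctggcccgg
CXCL2 (chr4:74964973-74965062, minus strand): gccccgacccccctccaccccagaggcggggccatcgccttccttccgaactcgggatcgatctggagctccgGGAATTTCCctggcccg
CXCL3 (chr4:74904467-74904556, minus strand): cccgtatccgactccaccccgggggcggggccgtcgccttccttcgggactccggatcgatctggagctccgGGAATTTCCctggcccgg
CXCL5 (chr4:74864455-74864544, minus strand): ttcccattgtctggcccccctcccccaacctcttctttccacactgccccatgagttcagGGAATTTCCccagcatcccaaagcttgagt
CCL20 (chr2:228678408-228678497, plus strand): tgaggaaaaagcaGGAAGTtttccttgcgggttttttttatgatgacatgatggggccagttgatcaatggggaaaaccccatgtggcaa
The deposited intervals of IL8, CXCL2 and CXCL3 reach into these stretches. The motifs were chosen after results of these data were known, and a match describes letters only. Only the letters given were searched, so differences in matches depend on the letters chosen. A promoter without a match, such as that of CCL20 for the NF-κB core, may still hold a site with other letters. Over the 250 bases upstream of the start, the NF-κB core occurred in 7 of the 8 member promoters, against 0.413% of 35116 promoters in the table. It began 91 bases upstream in IL8, 78 in CXCL1 and CXCL3, 77 in CXCL2, 90 in CXCL5, 89 in CXCL6 and, on the reverse strand, 176 in CXCL10. The AP-1 motif was present in IL8 alone among the 8, 137 bases upstream, and in 6.57% of all promoters. The ETS motif was present in IL8, CXCL10 and CCL20, and in 19.5% of all promoters. CXCL1, CXCL2, CXCL3 and CXCL5 did not differ under this search, and each held the NF-κB core alone. The start-proximal letters of CXCL1, CXCL2 and CXCL3 were nearly alike, and the coding sequences of these genes were identical at between 90.7% and 94.4% of positions, with 87.4% for CXCL5 and CXCL6. FPKM values of these close copies are uncertain where fragments fit more than 1 of them. IL8 shared between 48.4% and 54% with the other ELR genes.

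The 3′ UTR also differed among the genes. The pentamer ATTTA, the core of AU-rich elements, occurred 9 times in the 1252 bases of the IL8 3′ UTR, 6 times in CXCL1, 10 times in the 716 bases of CXCL2 and 7 times in CXCL3. CXCL5 held 11 copies and CXCL6 held 6. CCL20 held 3 copies, CCL2 and CXCL10 held 1 each, and CCL5 held 0. The density in CXCL2, 14 copies per kb, was above that of 99.6% of 18029 genes, for which the median was 1.67 per kb. The density in CCL2 was above that of 66.8%. CXCL5 and CXCL6, whose expression stayed at or near 0 in 11 libraries, had densities above those of 92.5% and 91.9%. The 30 bases with most copies are shown for IL8, CXCL2 and CCL20, in GRCh37 sequence with ATTTA in capitals.
IL8: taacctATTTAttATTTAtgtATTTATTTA
CXCL2: aagtcttctATTTATTTATTTATTTATTTA
CCL20: ttaaagttaaactgtattttatgttATTTA

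Values are FPKM, fragment numbers corrected for transcript length and for the yield of each library, so levels can be compared between genes. The depth of each library is unknown from such values. FPKM summed to between 566255 and 651080 in 11 libraries. The library labelled ΔCRE 0 h replicate 1 stood apart, with a sum of 1423335, 40.3% of it on ribosomal protein genes against at most 25.3% elsewhere. Summed FPKM of 10 intestinal epithelium markers was 10282 in that library and at most 3.46 in the other 11, and that of 8 leukocyte markers was 419 against at most 2.49. In those 11 libraries all 5 markers of mesenchymal breast cancer lines were present, and of 9 luminal breast markers 3 (ESR1, PGR and CDH1) were under 1 FPKM in every library. Among the other 6, the keratins KRT8 and KRT18 ranged from 269 to 513 and from 347 to 550 FPKM, and ERBB2, EPCAM and GATA3 were above 1 in every library. The library was left out of the main tests, so ΔCRE 0 h is 1 library whose spread is assumed to equal that of the other groups, and the chemokine results that rest on it are also given with both libraries. In WT cells ETS1 itself stood at 24.0 and 23.7 FPKM before stimulation, rising to 139 and 145 after 6 h, with 36.2 and 39.7 left at 24 h. In ΔCRE cells ETS1 was 16.5 at 0 h (5.08 in the library left out), 62.8 and 62.2 at 6 h and 29.3 and 30.7 at 24 h, lower than WT at each time point (adjusted p by limma 0.0132, 2.04e-05 and 0.0153). With all 12 libraries in the fit the ETS1 differences were not called (adjusted p 0.272, 0.682 and 1).

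In unstimulated WT cells every one of the 10 chemokines was at or below 2.33 FPKM, and 6 h of PMA/Ionomycin raised 6 of the 7 that passed a filter on low values (23.3% of all features tested were called higher). The filter itself favours genes that rise, because CXCL1, CXCL2, CXCL3 and CCL20 were under 1 FPKM at 0 h and passed it through the stimulated libraries, so the counts of members called are descriptions. IL8 measured 1.76 and 1.49 FPKM at 0 h, 1605 and 1594 at 6 h and 134 and 139 at 24 h. The mean at 6 h was 985-fold the mean at 0 h, and IL8 moved from ranks 10254 and 10562 among 24331 features to ranks 71 and 73. On the log2(FPKM + 1) scale the rise was 9.25 ± 0.09 (SE), the largest of the 11256 features tested in this comparison (adjusted p = 1.39e-10, limma).

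In WT cells CXCL1 measured 0.347 and 0.484 FPKM at 0 h, 47.0 and 44.2 at 6 h and 11.7 and 9.63 at 24 h. CXCL2 measured 0.894 and 0.701 at 0 h, 28.1 and 25.2 at 6 h and 7.21 and 5.91 at 24 h. CXCL3 measured 0.470 and 0.430 at 0 h, 19.5 and 17.8 at 6 h and 9.88 and 9.02 at 24 h. All 3 neutrophil attractants were lowest at 0 h and highest at 6 h. The ratio of means at 6 h to 0 h was 110 for CXCL1, 33.4 for CXCL2 and 41.4 for CXCL3, and the log2 rises were 5.04 ± 0.12, 3.94 ± 0.13 and 3.76 ± 0.09 (SE), with adjusted p of at most 1.15e-07 by limma.

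CCL2, the monocyte attractant, measured 0.909 and 2.33 FPKM at 0 h, 59.2 and 58.5 at 6 h and 8.04 and 9.04 at 24 h in WT cells. Its 0 h libraries differed more than those of the other induced genes, and both still lay far below the 6 h values (log2 rise 4.57 ± 0.21 SE, adjusted p = 9.13e-07, limma). CCL20, which attracts CCR6-bearing lymphocytes and dendritic cells, was listed at 0 in both WT 0 h libraries, and measured 83.3 and 92.6 at 6 h and 6.12 and 5.38 at 24 h. No fold change is given for CCL20 against the WT 0 h group. It was called higher at 6 h with an adjusted p of 3.65e-10 by limma. CCL5 stayed between 0.969 and 1.61 FPKM in all 6 WT libraries, and its difference between 6 and 0 h was 0.06 (95% interval -0.21 to 0.32 on the log2 scale, adjusted p = 0.713, limma). The sign of that difference turned negative under rescaling to TPM (-0.01).

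Of the 10 genes, 7 passed the filter of a mean of at least 1 FPKM over the 11 libraries, and CXCL5, CXCL6 and CXCL10 did not. At 24 h 6 of the 7 were called higher than at 0 h in WT cells (26.5% of all features), with the same 0 h libraries as the comparison at 6 h. With all 12 libraries in the fit 4 were called at 24 h, where 737 of 11676 features were called higher. In that fit CCL2 (adjusted p = 0.113, limma) and CCL20 (0.0964) were not called. CXCL6 was listed at 0 in all 11 libraries, and CXCL5 was at most 0.102 FPKM. In WT cells CXCL10 was 0 at 0 h, 0.159 and 0.261 after 6 h, and 0.0516 and 0.0561 after 24 h. Without the filter, CXCL10 had a log2 difference of 0.27 between 6 and 0 h (adjusted p = 0.0052, limma) and was called lower at 24 h than at 6 h in WT (-0.20, adjusted p = 0.0179) and ΔCRE cells (-0.15, adjusted p = 0.0479). In the same fit CXCL5 was called higher in WT cells at 24 h than at 0 h (0.12, adjusted p = 0.0136) and at 6 h (0.10, adjusted p = 0.0287). All of these levels were far under 1 FPKM.

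**Figure D1:**
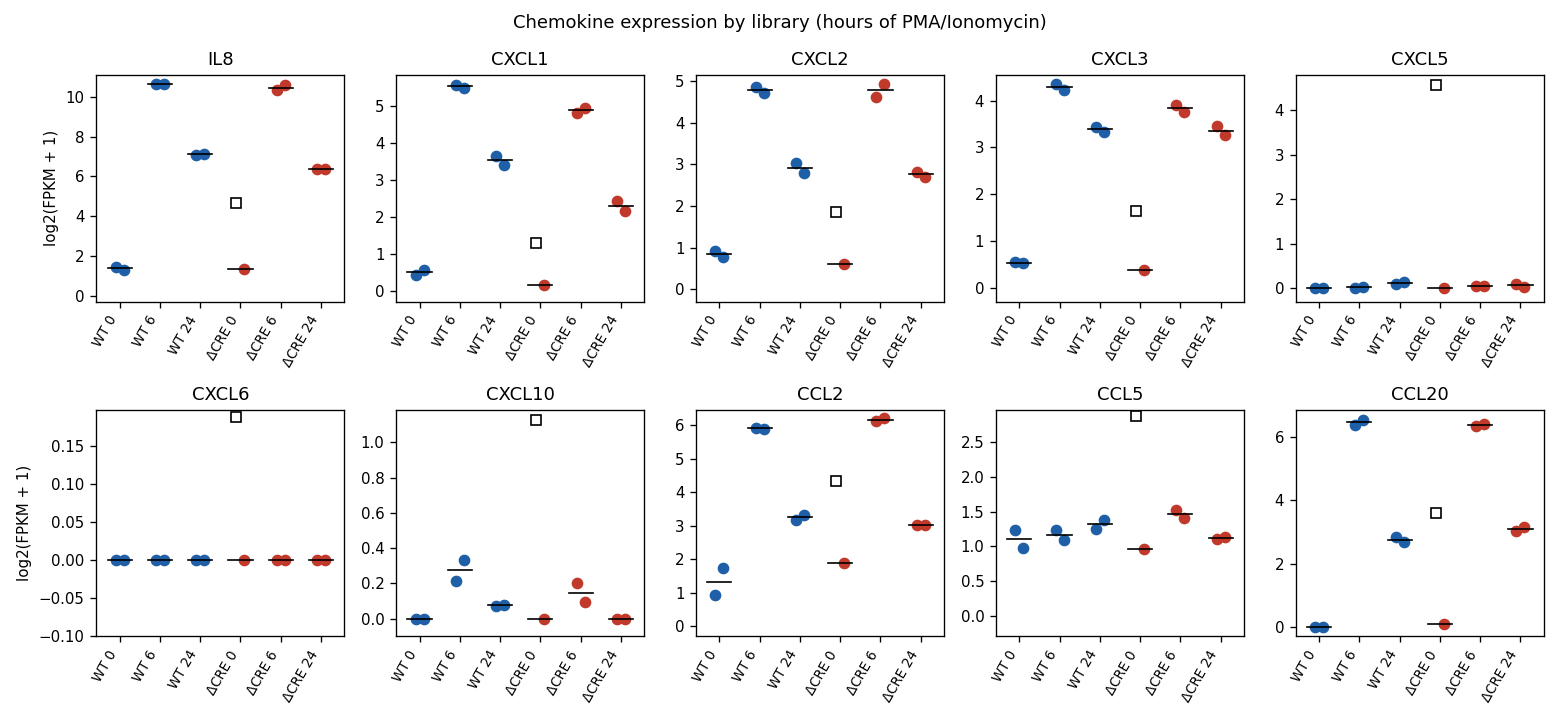
Expression of the 10 chemokines in each library, as log2(FPKM + 1) on axes that differ between panels, against genotype and hours of PMA/Ionomycin; WT is blue, ΔCRE is red, lines are means, and the open square is the library labelled ΔCRE 0 h replicate 1, left out of the means. The panels of IL8, CXCL1, CXCL2, CXCL3, CCL2 and CCL20 peak at 6 h in both genotypes, while CXCL5, CXCL6 and CXCL10 stay near 0 outside the open square.

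The composition of the chemokine output changed with time. The 10 genes together summed to 5.74 and 6.40 FPKM in WT cells at 0 h, to 1844 and 1834 at 6 h and to 179 and 180 at 24 h. IL8 made up 30.7% and 23.3% of that sum at 0 h, 87.1% and 86.9% at 6 h and 75.2% and 77.4% at 24 h. In ΔCRE cells the sum was 6.18 at 0 h, 1508 and 1790 at 6 h and 118 and 117 at 24 h, and IL8 made up 25.0%, then 85.6% and 87.1%, then 69.5% and 70.9%. At 6 h the order of mean levels in WT cells was IL8 (1600), CCL20 (88.0 ± 6.6 SD), CCL2 (58.8 ± 0.51), CXCL1 (45.6 ± 2.0), CXCL2 (26.6 ± 2.0), CXCL3 (18.6 ± 1.2) and CCL5 (1.25 ± 0.16), n = 2 each, and no neighbours in that order had overlapping libraries.

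From 6 to 24 h the induced genes fell. Called lower in WT cells were 6 of the 7, against 26.3% of all features. CCL20 was left at 6.54% of its 6 h mean, IL8 at 8.55%, CCL2 at 14.5%, CXCL1 at 23.4%, CXCL2 at 24.6% and CXCL3 at 50.7%. The log2 change was -3.72 ± 0.08 (SE) for CCL20 and -0.91 ± 0.09 for CXCL3, and the 95% intervals of those estimates did not overlap, whereas those of CCL20 and IL8, and of CXCL1 and CXCL2, did. Differences between genes were not tested. CCL5 had a log2 difference of 0.15 (adjusted p = 0.321, limma).

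ΔCRE cells showed the same time course in outline. IL8 measured 1.55 FPKM at 0 h, 1290 and 1559 at 6 h and 81.8 and 82.7 at 24 h. CXCL1 measured 0.0995, then 27.2 and 30.2, then 4.40 and 3.43, CXCL2 0.529, then 23.5 and 29.6, then 6.10 and 5.52, and CXCL3 0.303, then 13.9 and 12.6, then 9.93 and 8.61. Each of these 4 genes was highest at 6 h. CCL2 measured 2.69, then 69.0 and 72.3, then 7.11 and 7.18, and CCL20 measured 0.0745, then 81.9 and 85.4, then 7.19 and 7.98. CCL5 measured 0.938 at 0 h, 1.87 and 1.66 at 6 h and 1.16 and 1.19 at 24 h.

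All 7 tested chemokines were called higher at 6 h than at 0 h in ΔCRE cells, against 16.8% of all features. IL8 again had a large log2 rise (9.12 ± 0.11 SE, adjusted p = 6.98e-10, limma). CCL5 rose by 0.51 ± 0.14 (adjusted p = 0.0266, limma), a call that was lost without ΔCRE 6 h replicate 1 (adjusted p = 0.0828) and in a fit of the compared groups alone (0.0655). At 24 h 6 of the 7 were called higher than at 0 h (20.6% of all features), and between 6 and 24 h all 7 were called lower (27.5% of all features). Of the 6 h mean, 5.78% was left of IL8, 9.06% of CCL20, 10.1% of CCL2, 13.7% of CXCL1, 21.9% of CXCL2 and 69.8% of CXCL3. CCL5 fell by 0.35 on the log2 scale (adjusted p = 0.0352, limma), and that call was lost when any 1 of the 4 libraries compared was left out (adjusted p 0.0607 to 0.134) and on TPM (0.0714).

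With both libraries labelled ΔCRE 0 h in the fit, the rises at 6 h were smaller. Called higher were 6 of the 7, against 680 of 11676 features. IL8 then had 7.46 (adjusted p = 0.00181), CXCL1 4.17, CXCL2 3.54 and CXCL3 2.82. CCL20 had 4.55 (adjusted p = 0.0203), CCL2 3.05 (adjusted p = 0.0281, limma) and CCL5, not called, -0.45 (adjusted p = 0.52). At 24 h against 0 h, 4 of the 7 were called higher in that fit, against 757 of 11676 features. CCL2 (-0.09), CCL5 (-0.80) and CCL20 (1.25) were not called.

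**Figure D2:**
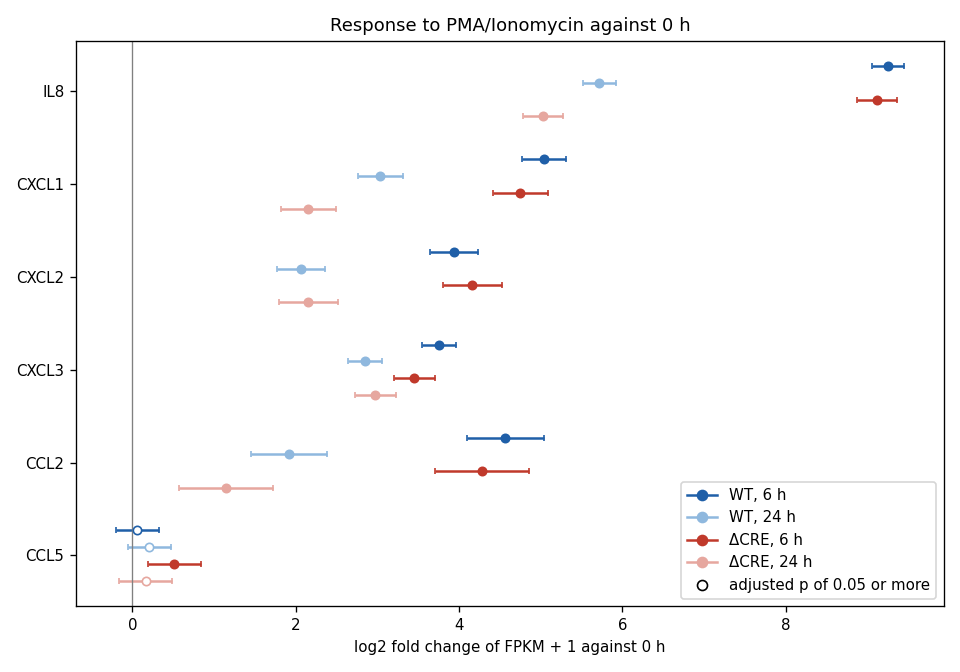
Log2 fold change of FPKM + 1 against 0 h for 6 chemokines in WT (blue) and ΔCRE (red) cells at 6 h (dark) and 24 h (light), from limma over 11 libraries; bars are 95% confidence intervals, and open points have an adjusted p of 0.05 or more. IL8 lies at 9.25 and 9.12 at 6 h, and CCL5 between 0.06 and 0.51, with a filled point in ΔCRE cells at 6 h; CCL20 is left out because its WT 0 h libraries are listed at 0.

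Between genotypes, no chemokine was called different at 0 h. By limma 0 of the 7 tested were called (1.69% of all features were). CXCL1 alone had an unadjusted p under 0.05, as 15% of all features did. Its log2 difference, ΔCRE against WT, was -0.36 (adjusted p = 0.3, limma). CCL2 had a difference of 0.55 (95% interval -0.03 to 1.13, adjusted p = 0.357, limma), and without WT 0 h replicate 2 it was 0.95 with an adjusted p of 0.0053. With a pseudocount of 0.1 in place of 1, 2 were called, CXCL1 at -1.36 (adjusted p = 0.0126, limma) and CCL20, both at levels below 0.5 FPKM. The size of the CCL20 difference is set by the pseudocount, since the WT 0 h libraries are listed at 0. With both ΔCRE 0 h libraries 0 of 7 were called (17 of 11676 features were). The sign of IL8 (1.63), CXCL1 (0.22), CXCL2 (0.39), CXCL3 (0.47) and CCL5 (0.80) turned positive in that fit.

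At 6 h CXCL1 and CXCL3 were lower in ΔCRE cells. Called lower were 2 of 7, against 6.22% of all features, and 0 of 7 were called higher, against 3.62%. The ΔCRE mean was 62.9% of the WT mean for CXCL1 (log2 difference -0.65 ± 0.12 SE, adjusted p = 0.0124, limma) and 71.2% for CXCL3 (-0.46 ± 0.09, adjusted p = 0.016). For each gene the higher ΔCRE library was under the lower WT library. Neither call held up to leaving out single libraries. CXCL1 had an adjusted p of 0.105 without WT 6 h replicate 1, 0.0607 without WT 6 h replicate 2, 0.0754 without ΔCRE 6 h replicate 1 and 0.0503 without ΔCRE 6 h replicate 2. CXCL3 had 0.129 and 0.055 without the first and the second WT 6 h library and 0.105 without ΔCRE 6 h replicate 2.

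IL8 was 89.0% of WT at 6 h, with a log2 difference of -0.17 (95% interval -0.37 to 0.03, adjusted p = 0.276, limma). CXCL2, the close copy of CXCL1 and CXCL3, was 99.7% of WT (-0.01, interval -0.30 to 0.28), and its libraries overlapped between genotypes. CCL20 was 95.1% of WT (-0.07, interval -0.26 to 0.12). CCL2 was 120% of WT and CCL5 141%, with differences of 0.26 (adjusted p = 0.498) and 0.30 (adjusted p = 0.158) by limma. For CCL2 and CCL5 both ΔCRE libraries lay above both WT libraries at 6 h. CCL2 was called when the 6 h libraries were fitted on their own (adjusted p = 0.0497), without the 0 h libraries, and also without WT 0 h replicate 1 (adjusted p = 0.05, just under the threshold before rounding).

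At 24 h IL8 and CXCL1 were lower and CCL20 was higher in ΔCRE cells. Called lower were 2 of 7, against 3.97% of all features, and 1 of 7 was called higher, against 2.35%. CXCL1 was 36.8% of WT (-1.25 ± 0.12 SE, adjusted p = 0.00122, limma), and 37 features had a lower log2 difference. IL8 was 60.1% of WT (-0.73 ± 0.09, adjusted p = 0.00305). The calls for CXCL1 and IL8 held without each library in turn of the 11, with log2 differences between -1.39 and -1.10 for CXCL1 and between -0.75 and -0.70 for IL8. Neither was called with all 12 libraries (adjusted p 0.528 and 1), where the unlike ΔCRE 0 h libraries enter the spread.

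CCL20 was 132% of WT at 24 h (0.35 ± 0.08, adjusted p = 0.0441, limma). Both ΔCRE libraries lay above both WT libraries, but the adjusted p was between 0.0615 and 0.247 when any 1 of the 10 libraries other than ΔCRE 0 h replicate 2 was left out. It was also above the threshold without the filter (0.074), on TPM (0.0757) and in a fit of the 24 h libraries alone (0.112). CXCL2 was 88.6% of WT (-0.15, interval -0.44 to 0.15), CXCL3 98.1% (-0.03, interval -0.23 to 0.18), CCL2 83.6% (-0.23, interval -0.70 to 0.24) and CCL5 78.6% (-0.20, interval -0.46 to 0.07). In bulk RNA, fewer expressing cells and less RNA per cell cannot be told apart.

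**Figure D3:**
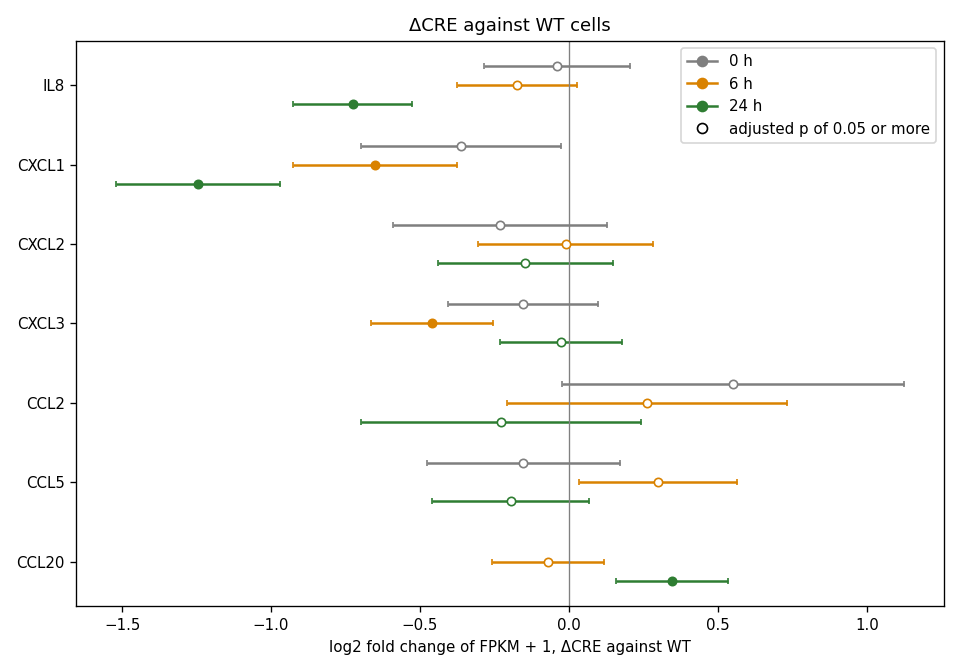
Log2 fold change of FPKM + 1 between ΔCRE and WT cells for the 7 chemokines tested, at 0 h (grey), 6 h (orange) and 24 h (green), from limma over 11 libraries; bars are 95% confidence intervals and open points have an adjusted p of 0.05 or more. CXCL1 lies at -0.36, -0.65 and -1.25, IL8 at -0.04, -0.17 and -0.73, and CXCL2 close to 0 at 6 h; CCL20 is not drawn at 0 h, where WT is listed at 0.

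Whether the genotype difference changed between time points was tested as an interaction. Between 6 and 24 h, 0 of 7 were called by limma (0.16% of all features were called), and 5 of 7 had an unadjusted p under 0.05, against 6.98% of all features. These were IL8 (-0.55 ± 0.12 SE, adjusted p = 0.255), CXCL1 (-0.59, adjusted p = 0.441), CXCL3 (0.43, adjusted p = 0.463), CCL20 (0.42, adjusted p = 0.435) and CCL5 (-0.50, adjusted p = 0.571). The 5 did not share a direction. Between 0 and 6 h, 0 of 7 were called by limma (0.267% of all features). Of the 7, 1 (CCL5) had an unadjusted p under 0.05 (0.45, adjusted p = 0.56), against 8.08% of all features. A change of the genotype difference with time was therefore not shown for any of the 7.

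The CXCL genes share a neighbourhood, and expression there was uneven. Within 300 kb of the cluster, PF4V1 and PPBP, which encode related chemokines of platelets, were listed at 0 in every group of the 11 libraries, and PF4 did not pass 1.07 FPKM as a group mean. CXCL6 lay 96.1 kb and CXCL5 255 kb downstream of the IL8 start, between induced genes, and stayed at or near 0. CXCL3, 296 kb away, reached a mean of 18.6 FPKM at 6 h in WT cells. EREG, an EGF-family growth factor 625 kb from IL8, was chosen after its values were seen, and measured 11.9, 30.9 and 20.9 FPKM (means at 0, 6 and 24 h) in WT cells and 19.4, 91.6 and 48.8 in ΔCRE cells. Beside CCL2, the genes CCL7, CCL11, CCL8, CCL13 and CCL1 were listed at 0 in the 11 libraries.

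**Figure D4:**
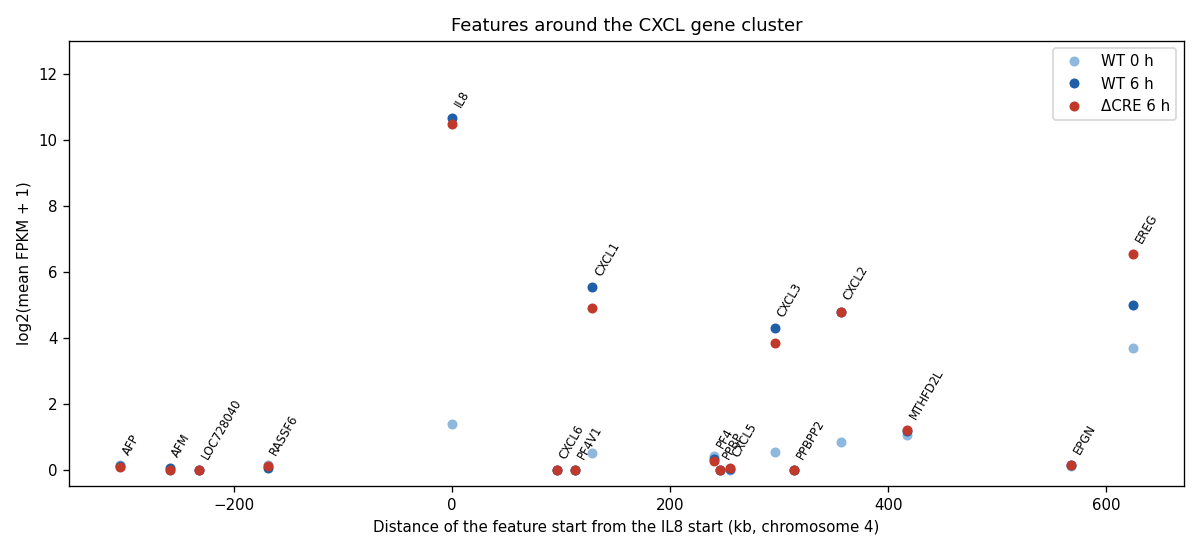
Mean expression, as log2(FPKM + 1), of the features around the CXCL cluster against the distance of their start from that of IL8, in WT cells at 0 h (light blue) and 6 h (dark blue) and in ΔCRE cells at 6 h (red). IL8, CXCL1, CXCL3 and CXCL2 rise from low values at 0 h, while CXCL6, PF4V1, PPBP and CXCL5 between them lie at or near 0.

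Other genes of the pathway came from lists. Of 38 further chemokines 37 were in the table, and 33 did not reach 1 FPKM in any of the 11 libraries. The filter left CCL26, a CCR3 ligand, and CCL28, a mucosal chemokine. CCL28 fell by 0.70 on the log2 scale between 0 and 6 h in WT cells (adjusted p = 0.0185, limma), the only call of the pair in that comparison, and neither was called between genotypes at any time point. CCL26 had a difference of 1.05 at 24 h (adjusted p = 0.0512, limma), with 1.51 and 1.22 FPKM in WT and 2.89 and 5.14 in ΔCRE cells. Of 23 chemokine receptors 21 did not reach 1 FPKM in any of the 11 libraries, and CCRL2, an atypical receptor that binds chemerin, was the receptor left for testing. CCRL2 rose from 6.05 and 6.61 FPKM at 0 h to 11.2 and 11.9 at 6 h in WT cells (0.78 ± 0.07, adjusted p = 5.99e-05, limma), and was higher in ΔCRE cells at 0 h (0.51, adjusted p = 0.0316; 0.79 and 0.272 with both ΔCRE 0 h libraries).

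Of 24 regulators of chemokine transcription and mRNA decay 23 were tested, and 19 rose (23.3% of all features did) and 1 fell between 0 and 6 h in WT cells. The largest rises were in RELB (3.91 on the log2 scale) and NFKB2 (3.41), which encode NF-κB subunits, and in TNFAIP3 (3.71) and NFKBIA (2.83), which encode inhibitors of the pathway. In ΔCRE cells 20 rose (16.8% of all features) and 1 fell. With all 12 libraries 14 rose in WT and 11 in ΔCRE cells, against 606 and 680 of 11676 features. Between 6 and 24 h 20 fell and 1 rose in WT cells (26.3% of all features fell). In ΔCRE cells 19 fell and 1 rose (27.5% fell). With all 12 libraries 6 fell in each genotype, where 582 (WT) and 845 (ΔCRE) of 11676 features were called in either direction. The median log2 change at 6 h was 1.72 in WT and 1.58 in ΔCRE cells, and 1.28 in the latter with both ΔCRE 0 h libraries.

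Between genotypes fewer regulators were called. At 6 h 3 of 23 were lower and 3 higher in ΔCRE cells (6.22% and 3.62% of all features), with the largest differences in ETS1 (-1.17), EGR1 (0.93), NFATC2 (-0.84) and ATF3 (0.58). Before stimulation, with ΔCRE 0 h as 1 library, the differences of these 4 genes were -0.51 (ETS1), 0.40 (EGR1), -0.60 (NFATC2) and 0.67 (ATF3). At 24 h 4 were lower and 1 was higher (3.97% and 2.35% of all features). Among them were EGR1 (0.63), NFATC2 (-0.45), NFKB2 (-0.38) and ETS1 (-0.33). ETS1, the gene whose own promoter was cut, is counted among the lower genes at 6 h and at 24 h. With all 12 libraries 0 of 23 were called by limma at 6 or at 24 h, where 20 and 17 of 11676 features were called. RELA, which encodes the main activating subunit of NF-κB, had a log2 difference of -0.07 at 6 h (adjusted p = 0.61, limma).

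Across the 11 libraries the chemokines followed each other closely, which is a description of groups that share the same time course. Pearson's r of log2(FPKM + 1) was between 0.843 and 0.994 over the 15 pairs among IL8, CXCL1, CXCL2, CXCL3, CCL2 and CCL20, and between 0.545 and 0.614 over the 6 pairs with CCL5. The features most like IL8 over the 11 libraries were ICAM1 and TNIP1 (r = 0.998 for both) and CSF1 (0.997). Those most like CXCL1 were MAP2K3 (0.997), SLC2A6 (0.995) and CSF1 (0.991), and those most like CXCL2 were NFKBIA (0.996), IL8 (0.994) and CSF1 (0.992). CCL2 was most like BIRC3 (0.995), IFNGR2 (0.993) and CSF2 (0.992). CCL20 was most like HERPUD1 (0.999), TRAF1 (0.998) and CD83 (0.996). For CCL5 the closest features, LDOC1L, IQCB1 and CRY2, reached an r of 0.830 to 0.835. The mean profile of the tested chemokines was most like CSF1, ZFAND3, FAM83H, CSNK1E and CLDN1 (0.992 to 0.993).

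In the library labelled ΔCRE 0 h replicate 1, CXCL5 and CXCL10 were above 1 FPKM, unlike in the other 11, and CXCL6 was at 0.139. CXCL5 reached 22.8 FPKM there, against at most 0.102 elsewhere, while IL8, at 24.7, lay between the 0 h and the 24 h values of the other libraries. CXCL1, CXCL2 and CXCL3 measured 1.45, 2.61 and 2.11. The part of the intestinal and leukocyte markers in these values was not tested.

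**Figure D5:**
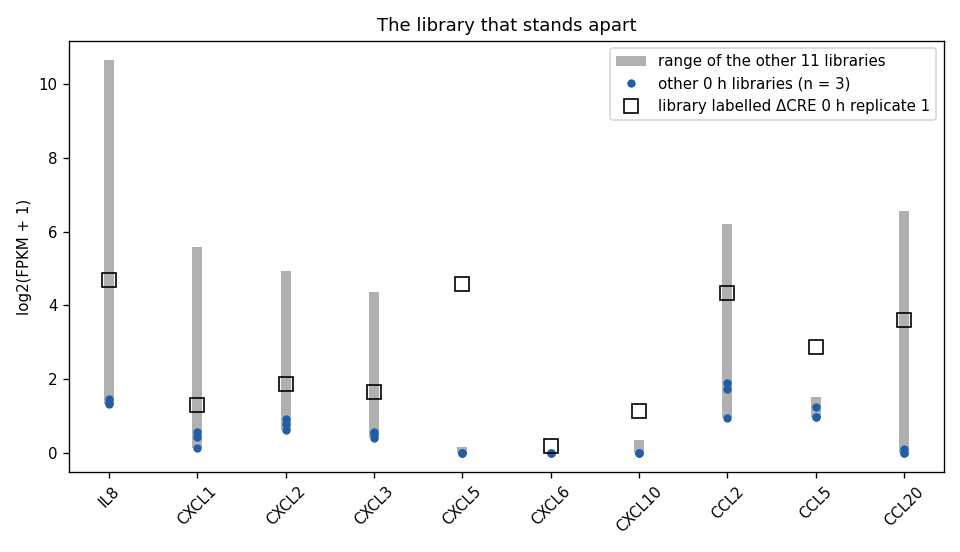
Expression of the 10 chemokines, as log2(FPKM + 1), with open squares for the library labelled ΔCRE 0 h replicate 1, blue points for the other 3 libraries at 0 h and grey bars for the range of the other 11. Every square lies above the blue points, and CXCL5, CXCL6, CXCL10 and CCL5 lie above the whole range.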

How the data were processed

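RNA-sequencing data of WT and ΔCRE MDA-MB-231 cells covered 12 libraries, whose titles give genotype, time and replicate. The authors mapped stranded mRNA sequences to hg19 with TopHat, estimated expression with Cufflinks and deposited FPKM values. The annotation and any scaling between libraries were not given in the sources used here. The columns read as ΔCRE 0 h and 6 h replicate 2 have a digit in place of a letter and were read as the only labels still free. The study's Cuffdiff test needs reads, so limma 3.58.1 (R 4.3.3; lmFit, eBayes with trend) was used on log2 of the deposited FPKM + 1. Features averaging at least 1 FPKM over 11 libraries (11256) entered 1 model of 6 groups, without ΔCRE 0 h replicate 1. Fold changes on this scale understate the change of low genes. Calls had a Benjamini-Hochberg adjusted p under 0.05 over all features. The same code was tested on simulated data with normal noise, where 200 of 11256 features were shifted by 1 on the log2 scale. In the comparisons without ΔCRE 0 h, between 95% and 97.5% of these were recovered, and between 4.04% and 5.34% of calls were false. Each feature otherwise had 1 level in all groups. The simulation therefore does not cover genes near 0 FPKM in some groups, or comparisons where many features change. The members and lists were chosen with earlier results of these data known. All members were named, and from each further list at most 4 genes per paragraph with the largest changes among those called. CCL26, CCRL2, RELA and the genotype differences of regulators at 0 h were also given as values outside that rule. Where a symbol had several features the highest on average was taken, and 405 features name more than 1 gene. The settings varied were the pseudocount (0.1), the filter (none, or a mean of at least 5), the scaling (quantile normalization, TPM), a separate fit for each comparison, a replicate block, eBayes with no trend, a minimum fold of 2, and the libraries used (all 12, or 1 left out at a time). The features most like CXCL3 are not reported here.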

Additional observations from a re-analysis of the deposited data

Results flagged for a closer look

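All 10 chemokines were higher than in both WT 0 h libraries in a library that the main comparisons do not use, the one labelled ΔCRE 0 h replicate 1. IL8 measured 24.7 FPKM, CXCL5 22.8, CCL2 19.2, CCL20 11.1 and CCL5 6.33. CXCL2 measured 2.61, CXCL3 2.11, CXCL1 1.45, CXCL10 1.19 and CXCL6 0.139. CXCL5 was 224-fold and CXCL10 4.55-fold the highest of the other 11 libraries, and CCL5 was 3.39-fold. FPKM summed to 1423335 in this library and to at most 651080 in the other 11. The ratios were not rescaled for that difference, so they overstate the change in the share of each library. CXCL6 was listed at 0 in all of those 11. IL8 was the most abundant member in this library too, at 26.9% of the summed member FPKM, with CXCL5 next, whereas CXCL5 was at most 0.102 FPKM elsewhere. All 10 intestinal epithelium markers and 5 of 8 leukocyte markers were at 1 FPKM or more in this library, with sums of 10282 and 419 against at most 3.46 and 2.49 elsewhere, and their part in the chemokine values was not tested.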

How the results depend on the processing

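Quantile normalization, eBayes without trend, a mean FPKM of at least 5 (which leaves CCL5 untested) and the replicate block changed the direction or the call of no chemokine. With all 12 libraries the calls fell from 6 to 4 (WT and ΔCRE, 24 against 0 h) and from 7 to 6 (ΔCRE, 6 against 0 h). They fell to 2 (WT, 24 against 6 h), 4 (ΔCRE, 24 against 6 h), 0 (genotype at 6 h) and 0 (genotype at 24 h). Of all 11676 features in that fit, 1221 and 1302 were called in either direction in the first 2 comparisons and 1011 in the third. The next 4 had 582, 845, 20 and 17. That fit includes the unlike ΔCRE 0 h libraries in its spread. The signs turned there for CCL5 in ΔCRE cells (-0.45 at 6 h and -0.80 at 24 h against 0 h), for CCL2 at 24 h (-0.085), for the genotype difference at 0 h of IL8 (1.63), CXCL1 (0.22), CXCL2 (0.39), CXCL3 (0.47) and CCL5 (0.80), and for the interaction of 0 and 6 h of CXCL2 (-0.40) and CCL5 (-0.51). A pseudocount of 0.1 gave 2 calls at 0 h and turned the latter interaction of CXCL1 to 0.69. A minimum fold of 2 left 0 genotype calls at 6 h and 1, CXCL1, at 24 h.

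Leaving out 1 library at a time gave between 0 and 1 genotype calls at 0 h, between 0 and 3 at 6 h and between 2 and 3 at 24 h, and 6 or 7 calls in the comparisons of time points. The call added in WT cells at 24 against 0 h was CCL5 without WT 0 h replicate 1 (0.34, adjusted p = 0.0456, limma). Values that turned sign were small and not called: CCL5 in WT at 6 against 0 h (-0.074 to 0.19; -0.008 on TPM), the genotype differences of IL8 at 0 h (-0.12 to 0.035), CXCL2 (-0.17 to 0.15) and CCL20 (-0.15 to 0.005) at 6 h and CXCL3 at 24 h (-0.12 to 0.066), and the interactions of CXCL2 between 6 and 24 h (-0.30 to 0.025) and of IL8 (-0.27 to 0.003) and CCL2 (-0.69 to 0.11) between 0 and 6 h. Causes were not tested.

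Rescaling to TPM moved the median of all features at 6 h by -0.12 in WT and -0.13 in ΔCRE cells. The share of calls that were higher went from 52.5% to 35.0% (WT, 6 against 0 h), 43.7% to 64.3% (WT, 24 against 6 h), 56.4% to 31.8% and 44.6% to 60.7% (the same in ΔCRE cells) and 37.2% to 24.7% (genotype at 24 h).

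The replicate numbers were not treated as pairs in the main fit. The correlation of same-numbered deviations was between -0.07 and 0.20 over 10 pairs of groups and above 0.1 in 2. With the number as a block, calls over all features between genotypes went from 190, 1107 and 712 to 655, 1805 and 1407 at 0, 6 and 24 h. The number of chemokines called at each time point stayed at 0, 2 and 3. Whether the numbers mark pairs is not settled by these values. With 2 libraries per group, 1 at ΔCRE 0 h and no known depth, small genotype differences are hard to resolve, and levels under 1 FPKM have no known counting error.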
